A study of Mus musculus with 10 samples.

Results

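The 6 genes of the Sox family described here are Sox1, Sox2, Sox3 and Sox9, which are used as genes of neural precursors, and Sox4 and Sox11, which are used as genes of young neurons. They were taken by gene symbol, as probe sets annotated with exactly 1 of these symbols and, where a gene had several, the probe set with the highest mean. The 6 genes had 7 probe sets (Sox4 had 2), out of 22180 genes measured. RNA came from cortices dissected from CD1 mouse embryos at E12-13, with no genetic change or drug named for any group. On 3 arrays the RNA had been precipitated with an antibody to 4E-T (4ET-IP replicates 1, 2 and 3). A further 3 arrays held RNA precipitated with control IgG (IgG-IP replicates 2, 3 and 4), and 4 held total RNA (input replicates 1 to 4). The design text counts 3 biological replicates of each kind, and whether tissue of several embryos was pooled is not given in the sources used here. In RNA of whole tissue, fewer cells of a type and less RNA per cell cannot be told apart.

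Sox proteins are transcription factors that bind DNA through a high-mobility-group (HMG) box. Sox1, Sox2 and Sox3 form the SoxB1 group, keep neural precursors in the dividing state and overlap in function, and Sox9, a SoxE protein, acts in radial precursors and later in glia. Sox4 and Sox11 belong to the SoxC group and switch on neuronal genes as precursors leave the cell cycle. 4E-T is a protein that binds the cap-binding factor eIF4E, blocks translation and sits in P-bodies, so its precipitate is a sample of RNA held with this repressor. The title of the study places 4E-T in the repression of a proneurogenic programme. The comparison of 4ET-IP with IgG-IP asks which Sox RNAs were more abundant with 4E-T than with an antibody of no target, and the comparisons with input set each precipitate against the tissue.

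Values are log2 intensities from robust multi-array average (RMA), and a difference of 1 means a 2-fold change. A pair of arrays, 4ET-IP 1 and input 1, lay on a lower scale: their medians over all probe sets were 3.52 and 3.54, against 4.33 to 4.54 on the 8 other arrays. The values of these arrays were identical at 7.52% of probe sets, whereas no other 2 arrays shared more than 0.138%. Results for the 6 genes are therefore given for all 10 arrays (3 4ET-IP, 3 IgG-IP, 4 input) and for the 8 other arrays (2, 3 and 3). Over all genes, median differences were -0.19 for 4ET-IP over IgG-IP, -0.02 for 4ET-IP over input and 0.20 for IgG-IP over input in the 10 arrays, and 0.02, 0.03 and 0.03 in the 8. A difference in the 10 arrays is therefore to be read beside the median of its own comparison. One with the same sign and no larger than that median is not beyond this shift. Arrays of a group correlated across genes at 0.975 or more. A gene was called at a limma adjusted p under 0.05, over all 22180 genes.

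**Figure D1:**
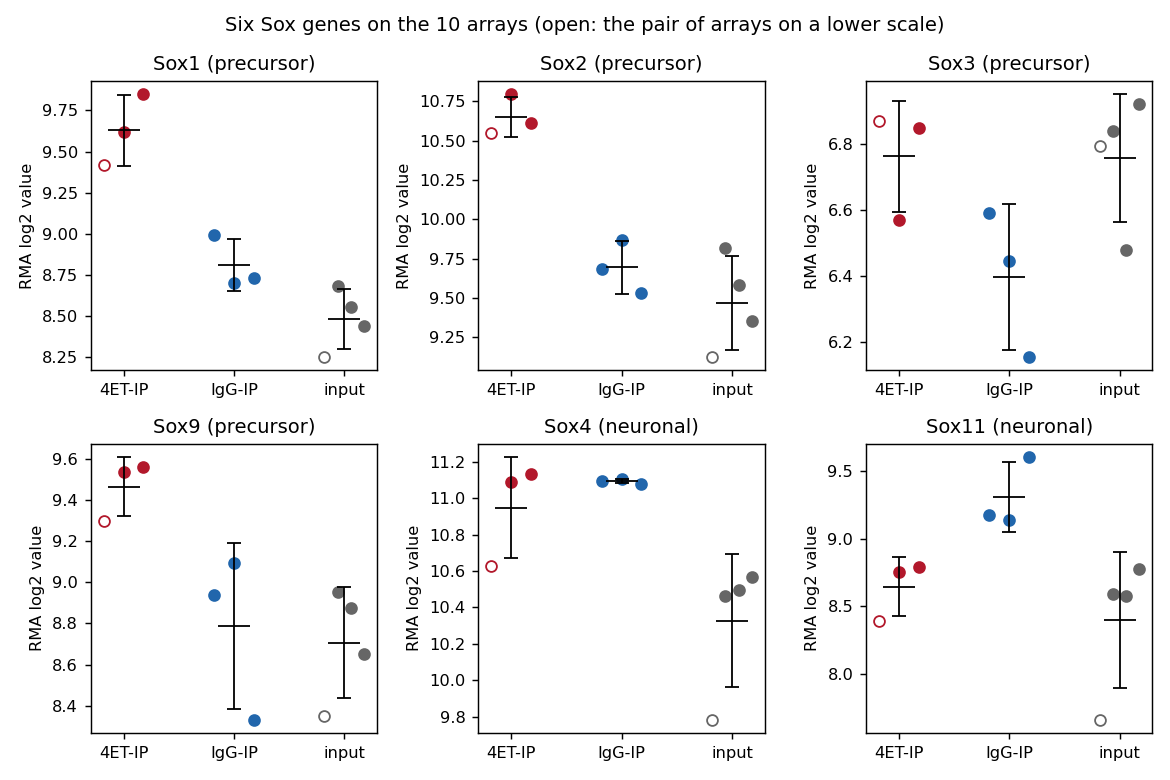
RMA log2 values (vertical axis) of each of the 6 Sox genes on every array of the 4ET-IP, IgG-IP and input groups. Points are arrays, open points are the pair on a lower scale, and bars are the mean ± SD. For Sox1, Sox2 and Sox9 all 4ET-IP arrays lie above all others, while for Sox11 the IgG-IP arrays lie highest.

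Sox1 and Sox2 had their highest values with 4E-T. Sox2, which maintains precursor identity, stood at 10.55, 10.79 and 10.61 on the 4ET-IP arrays, at 9.68, 9.87 and 9.53 on the IgG-IP arrays and at 9.12, 9.82, 9.58 and 9.36 on the input arrays. All 3 4ET-IP arrays lay above every other array, including the 4ET-IP array on the lower scale, and IgG-IP and input overlapped. Against input, Sox2 rose by 1.18 ± 0.22 (SE, 2.26-fold, adjusted p = 0.00855) in the 10 arrays and by 1.12 ± 0.18 (2.17-fold, adjusted p = 0.00265) in the 8. Against IgG-IP the difference was 0.96 ± 0.23 (1.94-fold) in the 10 arrays and missed the threshold (adjusted p = 0.0728). In the 8 arrays Sox2 passed it, at 1.01 ± 0.18 (2.01-fold, adjusted p = 0.00960). Its difference from IgG-IP exceeded that of 98.4% of genes in the 10 arrays and 97.6% in the 8. Between IgG-IP and input Sox2 differed by 0.22 ± 0.22 (adjusted p = 0.616) and 0.11 ± 0.16 (adjusted p = 0.738), with the opposite sign, at -0.09, when each array's median was subtracted. In that setting the median difference over all genes was -0.11.

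Sox1, another SoxB1 gene, followed the same order of groups. Its values were 9.42, 9.62 and 9.85 in 4ET-IP, 8.99, 8.70 and 8.73 in IgG-IP, and 8.25, 8.69, 8.56 and 8.44 in input. The 3 groups did not overlap, although the lowest IgG-IP array lay only just above the highest input array. Over input, Sox1 rose in 4ET-IP by 1.15 ± 0.21 (2.21-fold, adjusted p = 0.00752) in the 10 arrays and by 1.17 ± 0.16 (2.25-fold, adjusted p = 0.00132) in the 8. Set against IgG-IP it differed by 0.82 ± 0.22 (1.76-fold, adjusted p = 0.102) in the 10 arrays, which was not called, and rose by 0.92 ± 0.16 (1.90-fold, adjusted p = 0.00896) in the 8. Its difference of IgG-IP over input was 0.33 ± 0.21 (adjusted p = 0.447) and 0.25 ± 0.15 (adjusted p = 0.316).

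The calls against IgG-IP depended on the setting. Leaving out input 1 alone gave adjusted p = 0.0485 for Sox1 and 0.0271 for Sox2, while leaving out 4ET-IP 1 alone gave 0.0681 and 0.0697. In the 10 arrays both were also called with dim genes filtered (adjusted p = 0.0296 for Sox1 and 0.0204 for Sox2), with array medians subtracted (0.00311 and 0.00194) and after quantile normalization (0.00161 and 0.00119). The last 2 settings left a general upward shift in this comparison. The median difference over all genes was 0.25 with array medians subtracted and 0.14 after quantile normalization. Against input, Sox1 lost its call without 4ET-IP 3 (1.03, adjusted p = 0.0529) and Sox2 without 4ET-IP 2 (1.11, adjusted p = 0.0563).

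Sox9, a factor of radial precursors and of gliogenesis, had 9.30, 9.54 and 9.56 in 4ET-IP, 8.94, 9.10 and 8.33 in IgG-IP and 8.35, 8.95, 8.88 and 8.65 in input. Its 4ET-IP arrays lay above all others, and its IgG-IP arrays spread more widely than those of Sox1 or Sox2, with IgG-IP 4 the lowest of the 10 arrays. Over IgG-IP it differed by 0.68 ± 0.26 (1.60-fold, adjusted p = 0.278) in the 10 arrays and by 0.76 ± 0.22 (1.69-fold, adjusted p = 0.0631) in the 8, and was called in neither. It was called at 0.80 ± 0.20 (adjusted p = 0.0265) when the 10 arrays were fitted with the lower-scale pair as a term. Over input the 4ET-IP differences were 0.76 ± 0.24 (adjusted p = 0.0937) and 0.72 ± 0.22 (adjusted p = 0.0521), and with the replicate number as a block 0.69 ± 0.15 (adjusted p = 0.00903). The direction of Sox9 in 4ET-IP against both groups was the same in these fits, while its call was not. Between IgG-IP and input its sign turned with the arrays used, at 0.08 ± 0.24 in the 10 and -0.04 ± 0.20 in the 8 (adjusted p = 0.872 and 0.932).

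Sox3, the third SoxB1 gene, had another pattern. It stood at 6.87, 6.57 and 6.85 in 4ET-IP, 6.59, 6.44 and 6.15 in IgG-IP and 6.79, 6.84, 6.48 and 6.92 in input. The 4ET-IP and input arrays covered nearly the same range, and the lowest 4ET-IP array lay just below the highest IgG-IP array. Its difference of 4ET-IP over input was 0.00 ± 0.21 in the 10 arrays, with a 95% interval of -0.45 to 0.46, and -0.04 ± 0.20 in the 8 (-0.47 to 0.40). Those intervals leave out the differences of 1.15 and 1.18 that Sox1 and Sox2 had against input in the 10 arrays. Against IgG-IP Sox3 differed by 0.37 ± 0.22 (-0.12 to 0.85, adjusted p = 0.538) in the 10 arrays and by 0.31 ± 0.20 (-0.12 to 0.75, adjusted p = 0.405) in the 8. Sox3 was at -0.36 ± 0.21 (adjusted p = 0.407) and -0.35 ± 0.17 (adjusted p = 0.235) in IgG-IP over input.

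The SoxC genes had yet another pattern, with higher values in both precipitates than in input for Sox4 and the highest values in IgG-IP for Sox11. Sox4, which promotes neuronal differentiation, had 10.63, 11.09 and 11.13 in 4ET-IP, 11.09, 11.10 and 11.08 in IgG-IP and 9.78, 10.46, 10.50 and 10.56 in input. Every precipitate array lay above every input array, and the 3 IgG-IP arrays lay within the range of the 4ET-IP arrays. Over input Sox4 differed by 0.62 ± 0.24 (1.54-fold, adjusted p = 0.179) in 4ET-IP and by 0.77 ± 0.24 (1.70-fold, adjusted p = 0.0907) in IgG-IP in the 10 arrays, neither called. It rose in both in the 8 arrays, by 0.60 ± 0.13 (1.52-fold, adjusted p = 0.0131) in 4ET-IP and by 0.58 ± 0.12 (adjusted p = 0.00846) in IgG-IP. The replicate block also called Sox4 in 4ET-IP over input, at 0.68 ± 0.13 (adjusted p = 0.00386), and without 4ET-IP 1 it was called in IgG-IP over input (adjusted p = 0.0491).

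Between the precipitates no difference of Sox4 was detected. It was -0.14 ± 0.26 in the 10 arrays, with a 95% interval of -0.70 to 0.41 (adjusted p = 0.797), and 0.02 ± 0.13 in the 8 (-0.28 to 0.31, adjusted p = 0.965), so that its sign turned with the pair on the lower scale. The other Sox4 probe set, chosen as an alternative after the data had been seen, had 10.31, 10.46 and 10.48 in 4ET-IP, 10.23, 10.36 and 10.34 in IgG-IP and 9.58, 9.63, 9.76 and 9.82 in input. It too separated every precipitate array from every input array. Its difference between the precipitates was 0.11 (adjusted p = 0.810). Over input it was called at 0.72 in 4ET-IP (adjusted p = 0.0392) and was at 0.61 in IgG-IP (adjusted p = 0.0829).

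Sox11, the partner of Sox4 in neuronal differentiation, had 8.39, 8.76 and 8.79 in 4ET-IP, 9.18, 9.13 and 9.60 in IgG-IP and 7.66, 8.59, 8.57 and 8.78 in input. All IgG-IP arrays lay above all others, and 4ET-IP and input overlapped. Set over IgG-IP, Sox11 in 4ET-IP differed by -0.66 ± 0.30 (0.634-fold, adjusted p = 0.375) in the 10 arrays and by -0.53 ± 0.18 (0.691-fold, adjusted p = 0.0947) in the 8, and was called in neither. In IgG-IP over input it differed by 0.90 ± 0.28 (1.87-fold, adjusted p = 0.0836) in the 10 arrays and rose by 0.66 ± 0.16 (1.58-fold, adjusted p = 0.0179) in the 8. Between 4ET-IP and input the difference was 0.25 ± 0.28 (95% interval -0.35 to 0.84) and 0.13 ± 0.18 (-0.27 to 0.52).

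**Figure D2:**
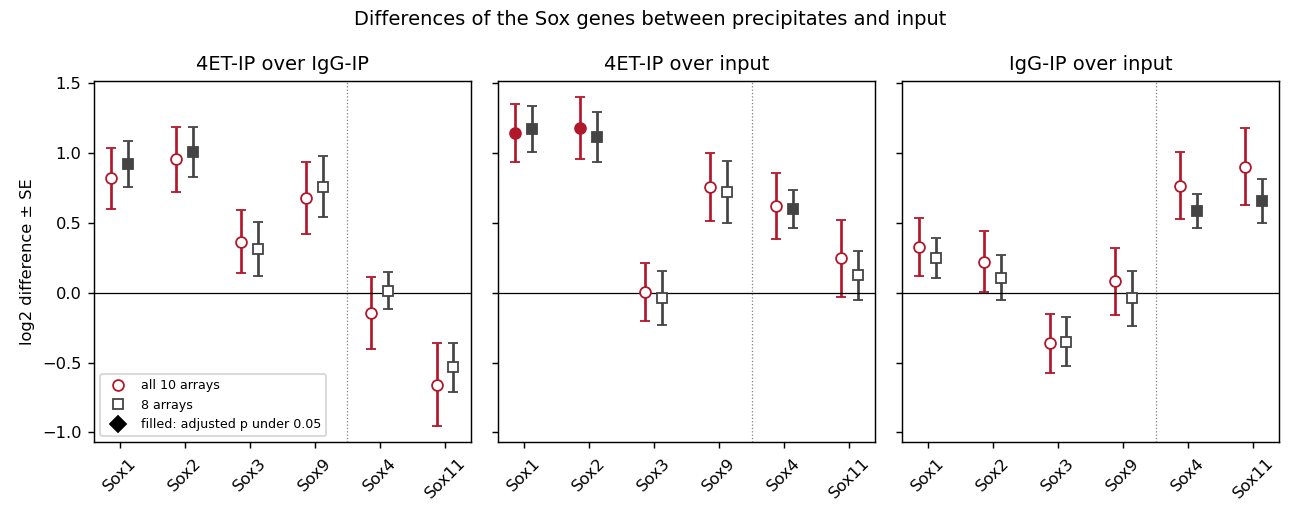
Log2 differences (vertical axis, ± SE) of the 6 Sox genes in the 3 comparisons, with precursor genes left and neuronal genes right of the dotted line. Circles are fits of all 10 arrays, squares fits of the 8 arrays without the lower-scale pair, and filled symbols have an adjusted p under 0.05. Sox1 and Sox2 lie near 1 in both comparisons of 4ET-IP, while Sox4 and Sox11 are called only in the fit of 8 arrays, Sox4 in both comparisons with input and Sox11 in IgG-IP over input.

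Counted together, limma called 0 of the 6 genes in 4ET-IP over IgG-IP in the 10 arrays, where 0.708% of all genes (157) were called higher and 0.640% (142) lower. That split moved to 2834 higher and 220 lower when array medians were subtracted and to 1890 and 530 after a new quantile normalization. At an unadjusted p under 0.05 there were 3 higher (Sox1, Sox2 and Sox9) and 1 lower (Sox11). The share of all genes at an unadjusted p was not counted, here or below, so such counts have no background to be read against. In the 8 arrays 2 of 6 were called higher (Sox1 and Sox2), against 6.29% of all genes, and 0 lower, against 2.33%. With the lower-scale pair as a term 3 were called higher, against 7.57% of all genes. The ranges of the 10 arrays did not overlap for 3 genes on the higher side and for 1 on the lower, against 7.02% and 14.5% of all genes.

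In 4ET-IP over input 2 of 6 were called higher in the 10 arrays, against 2.56% of all genes (568), and 3 in the 8 (Sox1, Sox2 and Sox4), against 8.88%. None was called lower, against 3.58% of all genes (793) in the 10 arrays and 7.20% in the 8. The replicate block, on the labels' numbers, called 4 (Sox9 was added), against 10.9%, and moved the count over all genes to 4510 from 1361. A pairing by number is not shown for replicates 2 and 3. Their deviations from group means correlated at 0.240 and 0.277 for equal numbers, and unequal numbers reached 0.269. Replicate 1 in the block is the lower-scale pair itself. With that pair as a term 4 were also called higher, against 10.4% of all genes. Ranges did not overlap on the higher side for 4 of the 6, against 6.45% of all genes. In IgG-IP over input limma called 0 of 6 in the 10 arrays, against 1.45% of all genes higher (322) and 3.99% lower (884), with 2 at an unadjusted p under 0.05 (Sox4 and Sox11, both higher). In the 8 arrays it called those 2 higher, against 5.68%, and 0 lower, against 9.97%. Here ranges did not overlap on the higher side for 3 of the 6 (Sox1, Sox4 and Sox11), against 14.1% of all genes. With array medians subtracted the split over all genes was 1722 higher and 752 lower in 4ET-IP over input and 338 and 2454 in IgG-IP over input, and after quantile normalization it was 2046 and 1346, and 1318 and 2228. The comparisons with input share the input arrays, and those of 4ET-IP share the 4ET-IP arrays.

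Within the pair on the lower scale a single difference of each gene exists, 4ET-IP 1 minus input 1, which has no test. It was 1.17 for Sox1, 1.42 for Sox2, 0.95 for Sox9 and 0.08 for Sox3, and 0.84 for Sox4 and 0.73 for Sox11, with a median of 0 over all genes. In the 8 arrays 4ET-IP over input gave 1.17 for Sox1, 1.12 for Sox2, 0.72 for Sox9, -0.04 for Sox3, 0.60 for Sox4 and 0.13 for Sox11, so that Sox11 was the gene whose value in the pair lay farthest from that of the 8 arrays.

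A difference between genes on the same array does not depend on a constant offset of that array. The lower scale was not constant over the 6 genes, however. For Sox11 input 1 lay at 7.66, below the other input arrays at 8.57 to 8.78. For Sox3 it lay at 6.79, within their range of 6.48 to 6.92. The part of the scale in the measure below was not tested. The mean of Sox1, Sox2, Sox3 and Sox9 minus the mean of Sox4 and Sox11 was -0.48, -0.79 and -0.74 in 4ET-IP, -1.58, -1.59 and -2.15 in IgG-IP, and -0.59, -0.95, -1.16 and -1.33 in input. Every 4ET-IP array lay above every IgG-IP array, every IgG-IP array lay below every input array, and 4ET-IP and input overlapped. Each 4ET-IP array nevertheless lay above the input array of the same number (3 of 3), and in the 8 arrays the ranges of 4ET-IP and input did not overlap. Only differences between groups are read from this measure, since the zero point depends on the probes. Group means were -0.67 ± 0.17 in 4ET-IP (SD, n = 3), -1.78 ± 0.33 in IgG-IP (n = 3) and -1.01 ± 0.32 in input (n = 4). The 4ET-IP mean was thus 1.11 above the IgG-IP mean and 0.34 above the input mean, and the IgG-IP mean was 0.77 below the input mean. Without the lower-scale pair the first of these was 1.01, the second 0.38 and the third -0.63 as IgG-IP minus input. Because the genes were chosen with earlier results known, these values carry no test.

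**Figure D3:**
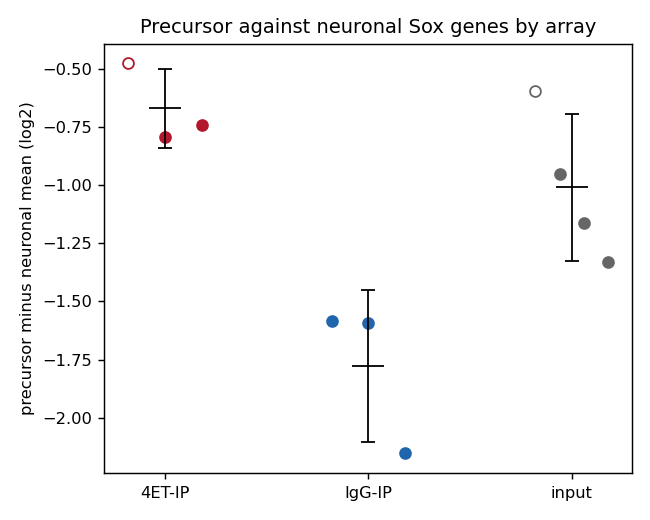
Mean log2 value of Sox1, Sox2, Sox3 and Sox9 minus that of Sox4 and Sox11 (vertical axis) on each array of the 4ET-IP, IgG-IP and input groups. Points are arrays, open points are the pair on a lower scale, and bars are the mean ± SD. The 4ET-IP arrays lie between -0.79 and -0.48, above the IgG-IP arrays at -2.15 to -1.58.

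The same contrast was taken apart into the 8 pairs of a precursor gene with a neuronal gene. Between 4ET-IP and IgG-IP the precursor gene was relatively higher in 4ET-IP in all 8 by the means, by 0.51 (Sox3 with Sox4) to 1.61 (Sox2 with Sox11), and the ranges did not overlap in 7. Sox2 minus Sox11 ran from 1.82 to 2.15 in 4ET-IP, against -0.07 to 0.73 in IgG-IP. Between 4ET-IP and input the ranges did not overlap in 5 of 8, all higher in 4ET-IP. Both pairs with Sox3 had the opposite sign there, at -0.62 with Sox4 and -0.24 with Sox11. In IgG-IP over input all 8 mean differences were below 0, from -1.27 to -0.44, with ranges apart in 4. In the 8 arrays the mean differences ran from 0.30 to 1.54 in 4ET-IP over IgG-IP, with ranges apart in 7, and from -1.01 to -0.33 in IgG-IP over input, with ranges apart in 4. In 4ET-IP over input they ran from -0.64 to 1.05 there, with ranges apart on the higher side in 5 and on the lower side in 1. The pairs share genes and arrays and are not independent of each other.

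Across arrays, after each array's median had been subtracted, Sox1 and Sox2 varied together, with a Pearson r of 0.966 in the 10 arrays and 0.941 in the 8. Sox2 and Sox9 stood at 0.955 and 0.923, and Sox1 and Sox9 at 0.917 and 0.852. Sox4 and Sox11 correlated at 0.688 and 0.571. With Sox4 the SoxB1 genes Sox1 (0.805 and 0.730) and Sox2 (0.757 and 0.615) had higher correlations than Sox11 had. Sox2 with Sox11 stood at 0.142 in the 10 arrays and at -0.22 in the 8, and Sox3 with Sox11 at -0.25 and -0.66. These are descriptions over arrays that also share their group and scale, and they are given without a test.

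RefSeq (GRCm38.p6) promoter windows were at hand for Sox1, Sox2, Sox4 and Sox11, the genes on which the contrast of precursor and neuronal members mostly rests. They are shown because Sox1 and Sox2 moved together, and Sox4 and Sox11 both had high values in IgG-IP. Each is the 250 bases before the start of transcription, read 5′ to 3′ on the strand of the gene, with CCAAT boxes in capitals (CCAAT, or ATTGG on the other strand). The windows are chr8:12395269-12395518 (plus strand) for Sox1, chr3:34649745-34649994 (plus) for Sox2, chr13:28953700-28953949 (minus) for Sox4 and chr12:27342719-27342968 (minus) for Sox11.
Sox1: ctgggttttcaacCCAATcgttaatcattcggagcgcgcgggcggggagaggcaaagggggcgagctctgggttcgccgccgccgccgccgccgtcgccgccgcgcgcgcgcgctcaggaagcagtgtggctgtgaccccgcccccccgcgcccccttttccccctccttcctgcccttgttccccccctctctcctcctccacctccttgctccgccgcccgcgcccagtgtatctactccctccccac
Sox2: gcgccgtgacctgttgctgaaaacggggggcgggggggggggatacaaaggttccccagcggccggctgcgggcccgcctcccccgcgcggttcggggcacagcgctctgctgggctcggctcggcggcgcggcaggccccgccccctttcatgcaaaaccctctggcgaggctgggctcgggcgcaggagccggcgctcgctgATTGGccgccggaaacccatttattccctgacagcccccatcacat
Sox4: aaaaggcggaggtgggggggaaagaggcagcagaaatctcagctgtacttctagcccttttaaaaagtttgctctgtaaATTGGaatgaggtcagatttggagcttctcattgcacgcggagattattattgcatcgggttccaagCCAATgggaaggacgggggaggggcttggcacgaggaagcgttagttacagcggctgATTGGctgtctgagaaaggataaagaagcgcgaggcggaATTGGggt
Sox11: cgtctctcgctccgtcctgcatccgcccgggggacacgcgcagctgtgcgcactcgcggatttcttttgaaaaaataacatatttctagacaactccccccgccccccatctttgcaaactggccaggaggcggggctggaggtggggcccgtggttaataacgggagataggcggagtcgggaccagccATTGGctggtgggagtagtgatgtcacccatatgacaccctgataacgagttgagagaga

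The windows of Sox1 and Sox2 held 71.2% and 72.0% G and C, those of Sox4 and Sox11 50.8% and 58.0%, and the median over all 32851 RefSeq windows was 52.4%. CpG dinucleotides numbered 29 in Sox1, 27 in Sox2, 11 in Sox4 and 17 in Sox11, against a median of 6. All 4 windows held a CCAAT box, at 46 bases before the start in Sox2, 60 in Sox11 and 237 in Sox1 as counted from its first base, and at 4 places in Sox4. Of all windows 33.8% held it. None of the 4 held the octamer ATGCAAAT, the exact string ACAATG (used for the Sox motif) or TATAAA on either strand. Of all windows 1.60%, 10.7% and 12.4% held them, and no matches of different motifs overlapped. Other forms of the Sox motif were not searched, so its absence from these windows is not shown. These matches describe the letters only.

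The other 14 measured Sox genes give the place of the 6 in their family. limma called 0 of them in 4ET-IP over IgG-IP in both the 10 and the 8 arrays. At an unadjusted p under 0.05, for which no share of all genes was counted, 1 was higher in the 10 (Sox8). In the 8 there were 3 (Sox7, Sox8 and Sox18). Their median difference was -0.06 in the 10 arrays, against -0.19 over all genes, and 0.14 in the 8, against 0.02. For the 6 genes it was 0.52 and 0.54. Sox8, a SoxE gene like Sox9, differed by 0.72 ± 0.28 (adjusted p = 0.284) in the 10 arrays and by 0.78 ± 0.26 (adjusted p = 0.0993) in the 8, close to Sox9. Sox10, the SoxE gene of neural crest and oligodendrocytes, was at -0.52 ± 0.38 and -0.12 ± 0.16.

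Of the SoxC group, Sox12 differed by -0.35 ± 0.36 between the precipitates in the 10 arrays and by -0.05 ± 0.19 in the 8. In the SoxB2 group, Sox21, which opposes SoxB1 proteins, rose in both precipitates over input in the 8 arrays, by 0.86 ± 0.19 (adjusted p = 0.0128) in 4ET-IP and 0.69 ± 0.17 (adjusted p = 0.0208) in IgG-IP. In the 10 arrays it was called in neither, at 0.66 ± 0.23 (adjusted p = 0.131) and 0.71 ± 0.23 (adjusted p = 0.110). Between the precipitates Sox21 differed by 0.17 ± 0.19 in the 8 arrays and by -0.04 ± 0.25 in the 10. Sox14, the other SoxB2 gene, was at -0.06 ± 0.31 between the precipitates in the 10 arrays and at 0.16 ± 0.19 in the 8. Sox6, a SoxD gene, was called in IgG-IP over input in the 8 arrays (0.56 ± 0.13, adjusted p = 0.0136) and not in the 10 (0.65 ± 0.24, adjusted p = 0.153). Sox5 and Sox13 of the same group were called in no comparison when group alone was fitted, in the 10 or the 8 arrays. Sox13 was called in 4ET-IP over input with the lower-scale pair as a term (0.57 ± 0.16, adjusted p = 0.0293), with the replicate block (adjusted p = 0.0422) and after quantile normalization (adjusted p = 0.0413).

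Among SoxF genes, which act in endothelium, Sox18 fell by 0.86 ± 0.20 (adjusted p = 0.0170) in IgG-IP against input in the 8 arrays and was at 0.78 ± 0.23 (adjusted p = 0.0639) in 4ET-IP over IgG-IP. In the 10 arrays Sox18 was called in neither, at -0.68 ± 0.27 (adjusted p = 0.197) and 0.62 ± 0.29 (adjusted p = 0.401). Between the precipitates Sox7 was at 0.50 ± 0.29 (adjusted p = 0.518) in the 10 arrays and 0.73 ± 0.22 (adjusted p = 0.0739) in the 8, and Sox17 at -0.06 ± 0.26 and 0.13 ± 0.15. With the lower-scale pair as a term limma called Sox18 at 0.82 (adjusted p = 0.0266), Sox7 at 0.70 (adjusted p = 0.0498) and Sox8 at 0.82 (adjusted p = 0.0462). Sry, Sox15 and Sox30 were called in no comparison when group alone was fitted, in the 10 or the 8 arrays. Several of these genes were dim. In the 8 arrays the means in 4ET-IP, IgG-IP and input were 4.73, 3.95 and 4.81 for Sox18, and 4.42, 3.69 and 3.96 for Sox7. The median gene lay at 4.82 to 4.94 on those arrays, and the group means of Sry, Sox10, Sox15 and Sox30 also lay below it. Over input limma called 0 of the 14 in the 10 arrays in either precipitate, and in the 8 arrays 1 higher in 4ET-IP, and 2 higher and 1 lower in IgG-IP, against the shares of all genes given above. At an unadjusted p under 0.05 in the 10 arrays there was 1 higher in 4ET-IP (Sox21), and there were 2 higher (Sox6 and Sox21) and 1 lower (Sox18) in IgG-IP.

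**Figure D4:**
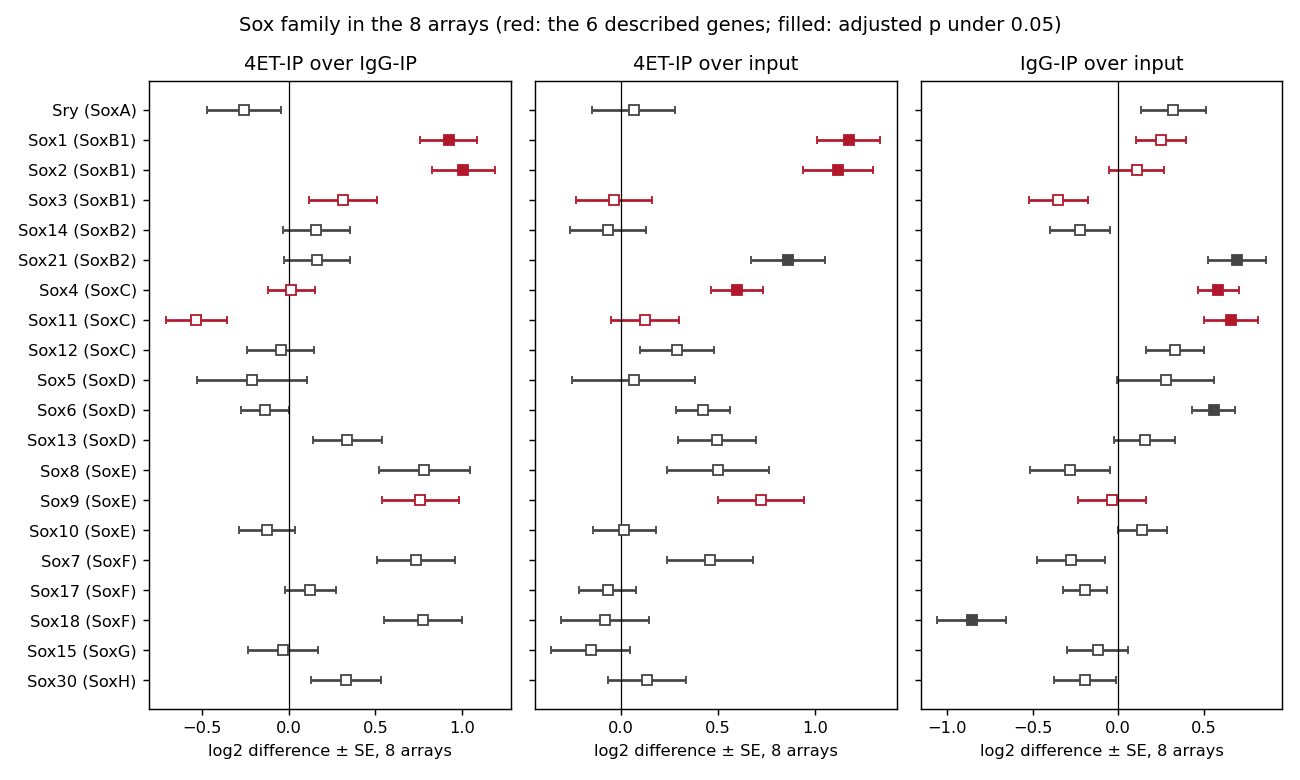
Log2 differences (horizontal axis, ± SE) of the 20 measured Sox genes in the fit of 8 arrays, listed by Sox group, for the 3 comparisons. Red marks the 6 described genes and filled squares an adjusted p under 0.05. Sox1 and Sox2 are the only Sox genes called in 4ET-IP over IgG-IP, and Sox11 has the lowest difference there.

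Genes that work beside the Sox factors were read from 2 lists chosen by symbol. Of 20 precursor genes linked with SoxB1 proteins and Sox9, limma called 0 in 4ET-IP over IgG-IP in the 10 arrays, and 6 higher and 2 lower in the 8, where 6.29% of all genes were called higher and 2.33% lower. The median difference of that list was 0.18 in the 10 arrays and 0.27 in the 8, against -0.19 and 0.02 over all genes. Hes5, a Notch effector that keeps precursors undifferentiated, was highest at 1.46 ± 0.38 (adjusted p = 0.0886), and rose by 1.74 ± 0.16 (adjusted p = 0.000618) in the 8 arrays. Slc1a3, a glutamate transporter of radial glia, came next at 0.87 ± 0.28 (adjusted p = 0.167), and rose by 1.02 ± 0.26 (adjusted p = 0.0395) in the 8.

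At the other end of that list Nfia, a gliogenic factor that works with Sox9, was at -0.90 ± 0.26 (adjusted p = 0.131) and fell by 0.75 ± 0.19 (adjusted p = 0.0372) in the 8. Ptprz1, a receptor phosphatase of radial glia, was at -0.61 ± 0.20 (adjusted p = 0.194), and fell by 0.55 ± 0.15 (adjusted p = 0.0497) in the 8. In 4ET-IP over input 5 precursor genes were called higher in the 10 arrays (Nes, Hes1, Hes5, Pou3f3 and Emx2) and 1 lower (Vim), and in the 8 arrays 8 and 1. Of all genes 2.56% were called higher and 3.58% lower in the 10 arrays, and 8.88% and 7.20% in the 8. In IgG-IP over input 3 were higher (Notch1, Nfia and Ptprz1) and 1 lower (Vim) in the 10 arrays, and 5 and 1 in the 8, with Hes5 and Pou3f2 added. Over all genes those shares were 1.45% higher and 3.99% lower in the 10 arrays, and 5.68% and 9.97% in the 8.

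Of 20 neuronal genes linked with SoxC proteins, Dcx, a microtubule-binding protein of migrating neurons, was called lower in 4ET-IP over IgG-IP (-1.23 ± 0.26, adjusted p = 0.0383, and -1.09 ± 0.23, adjusted p = 0.0181, in the 8 arrays). None was called higher in the 10 arrays, and Nhlh2 and Neurod1 were in the 8, against 6.29% of all genes higher and 2.33% lower. Nhlh2, a helix-loop-helix factor of new neurons, was at 0.71 ± 0.24 (adjusted p = 0.205), and rose by 0.90 ± 0.17 (adjusted p = 0.0109) in the 8. Tubb3, a neuronal tubulin, was at 0.53 ± 0.24 (adjusted p = 0.368) in the 10 arrays and 0.47 ± 0.19 (adjusted p = 0.171) in the 8. Myt1, a zinc finger factor of neurons, was at -0.76 ± 0.32 (adjusted p = 0.327) and -0.41 ± 0.16 (adjusted p = 0.155). The median of the list was -0.10 in the 10 arrays and 0.10 in the 8. Over input in the 10 arrays, Nhlh2 was called higher in 4ET-IP and Dcx in IgG-IP, and Stmn2 was called lower in both. In the 8 arrays 5 were higher and 1 lower in 4ET-IP, and 4 higher and 2 lower in IgG-IP. These counts stand beside 8.88% of all genes higher and 7.20% lower in 4ET-IP, and 5.68% and 9.97% in IgG-IP.

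Markers of cell types were read beside these values, as the range over arrays of the mean log2 value of each list. Emx2, Pax6 and Hes5 are also in the list of precursor genes above. All 5 neuron markers (Tubb3, Dcx, Tbr1, Neurod6 and Stmn2) are also in the list of neuronal genes. Their calls are therefore the same results given again. The 4 measured markers of cortical precursors (Emx1, Emx2, Pax6 and Hes5) lay between 8.35 and 8.71 in 4ET-IP, 7.69 and 7.79 in IgG-IP and 7.30 and 7.92 in input, and without the lower-scale pair between 8.43 and 8.71, 7.69 and 7.79, and 7.64 and 7.92. These means lean on Hes5. In the 10 arrays Hes5, Emx2, Emx1 and Pax6 differed by 1.46, 0.81, 0.56 and 0.21 in 4ET-IP over IgG-IP. In 4ET-IP over input they were at 2.29, 0.80, -0.20 and 0.38. The 5 markers of cortical neurons lay between 9.51 and 9.87 in 4ET-IP, 9.74 and 10.08 in IgG-IP and 9.50 and 10.29 in input, and without the pair between 9.78 and 9.87, 9.74 and 10.08, and 9.81 and 10.29. In 4ET-IP over IgG-IP 2 precursor markers were called higher in the 8 arrays (Emx2 and Hes5) and 1 neuron marker lower (Dcx). Of all genes 6.29% were called higher and 2.33% lower there. Over input, Emx2 and Hes5 were called higher in 4ET-IP in both the 10 and the 8 arrays, against 2.56% and 8.88% of all genes. Hes5 was also called higher in IgG-IP over input, and Emx1 lower (-0.84 ± 0.16, adjusted p = 0.00638), in the 8 arrays. Stmn2, a tubulin-binding protein of neurons, was called lower over input in both precipitates. The neuron marker Dcx was called higher in IgG-IP over input in the 10 and the 8 arrays, and in the 8 Tbr1 was called higher and Tubb3 lower there. In IgG-IP over input 1.45% of all genes were called higher and 3.99% lower in the 10 arrays, and 5.68% and 9.97% in the 8.

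Of 5 endothelial markers Kdr was called higher in 4ET-IP over IgG-IP (1.35 ± 0.27, adjusted p = 0.0305, and 1.61 ± 0.20, adjusted p = 0.00206, in the 8 arrays), and their mean lay between 4.56 and 5.38 in 4ET-IP, 4.57 and 4.84 in IgG-IP and 4.50 and 5.09 in input. Without the lower-scale pair the endothelial mean lay between 5.12 and 5.38, 4.57 and 4.84, and 5.01 and 5.09. Kdr was also called higher in 4ET-IP over input (1.34 ± 0.25, adjusted p = 0.00885, and 1.60 ± 0.20, adjusted p = 0.000909, in the 8 arrays). Cdh5 was called lower in IgG-IP over input in the 8 arrays (-0.80 ± 0.23, adjusted p = 0.0378). The endothelial mean in 4ET-IP leans on Kdr. Cdh5, Pecam1, Tie1 and Esam differed by 0.21, 0.34, -0.05 and -0.26 in 4ET-IP over IgG-IP in the 10 arrays. In the 8 arrays they were at 0.49, 0.57, 0.05 and 0.03. Over input in the 10 arrays they were at -0.41, -0.05, -0.25 and -0.07 in 4ET-IP. None of them was called in these comparisons of 4ET-IP. In 4ET-IP over IgG-IP, Foxc1 of 5 meningeal and mesenchymal markers was called higher in the 8 arrays. So was Slc4a1 of 2 measured erythroid markers. The other meningeal markers went the other way there, at -0.01 (Col1a1), -0.73 (Col1a2), -0.32 (Col3a1) and -0.40 (Lum), none of them called. In the 10 arrays they were at -0.19, -1.54, -0.55 and -1.02, and the replicate block called Col1a2 and Lum lower. Klf1, the other erythroid marker, was at 0.14 in the 8 arrays and -0.28 in the 10. None of 5 microglia markers and of 4 measured markers of the oligodendrocyte lineage and neural crest was called in 4ET-IP over IgG-IP in the 10 or the 8 arrays. Of all genes 0.708% were called higher and 0.640% lower there in the 10 arrays, and 6.29% and 2.33% in the 8. In 4ET-IP these 4 lists lay between 3.57 and 5.08 (meningeal), 4.36 and 5.96 (erythroid), 4.42 and 5.10 (microglia) and 3.76 and 4.68 (oligodendrocyte and crest). In IgG-IP they lay between 4.58 and 5.21, 5.01 and 5.30, 4.83 and 5.25, and 4.11 and 4.25 in the same order. In input they lay between 3.22 and 5.04, 4.06 and 5.35, 4.51 and 5.39, and 3.79 and 4.50. Without the lower-scale pair their 4ET-IP ranges were 4.86 to 5.08, 5.63 to 5.96, 4.96 to 5.10 and 4.41 to 4.68, and their input ranges 4.32 to 5.04, 5.17 to 5.35, 5.24 to 5.39 and 4.17 to 4.50, while the IgG-IP arrays were the same.

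Tyrobp, a signalling adaptor of microglia, was called lower than in input in both precipitates. It was at -1.64 ± 0.26 (adjusted p = 0.00427) in 4ET-IP and -1.31 ± 0.26 (adjusted p = 0.0118) in IgG-IP in the 10 arrays, and at -1.79 ± 0.26 (adjusted p = 0.00158) and -1.42 ± 0.23 (adjusted p = 0.00259) in the 8. Cx3cr1, a chemokine receptor of microglia, was called higher than in input in the 8 arrays, at 1.31 ± 0.18 (adjusted p = 0.00139) in 4ET-IP and 0.75 ± 0.16 (adjusted p = 0.0117) in IgG-IP. Foxc1 (1.36 ± 0.16, adjusted p = 0.000659) and Slc4a1 (1.17 ± 0.19, adjusted p = 0.00265) were called higher in 4ET-IP over input in the 8 arrays. The other meningeal markers were at -0.31 (Col1a1), -0.05 (Col1a2), 0.03 (Col3a1) and -0.07 (Lum) there, none of them called. Of all genes 8.88% were called higher and 7.20% lower in 4ET-IP over input in the 8 arrays, and 5.68% and 9.97% in IgG-IP over input. The part of these markers in the values of the Sox genes was not tested, and the table holds no detection calls.

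By pattern over the 10 arrays, each array's median subtracted, the 3 genes most like each Sox gene were taken from 10293 named genes with a mean at or above that of the median gene. For Sox2 they were Lrrc1 (r = 0.990), Sp4 (0.985) and Lpar1 (0.985), and for Sox1 Epc2 (0.992), Lpcat1 (0.990) and Msl2 (0.989). Sox9 was closest to Kif18b (0.994), Nhs (0.987) and Itpripl1 (0.987), and Sox3 to Rpusd3 (0.987), Trmt1l (0.984) and Rnf113a2 (0.982). Sox4 was closest to G2e3 (0.989), Aftph (0.986) and Atad1 (0.982). Sox11 had less close neighbours, with Pcdhb6 at 0.958, Gnaq at 0.924 and Rc3h2 at 0.923. In the 8 arrays the genes listed for Sox3 were at 0.955, 0.954 and 0.955, and those of the other Sox genes at 0.916 to 0.996. With medians subtracted, Sox3 stood at 7.60 and 7.50 in the lower-scale pair, against 5.86 to 6.78 on the other arrays. The part of the scale in this likeness was not tested. No gene was shared between these 6 lists, and the likeness is of group and array pattern in the same 10 arrays.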

How the data were processed

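Affymetrix arrays (Mouse Gene 2.0 ST) measured RNA of 3 4ET-IP, 3 IgG-IP and 4 input samples. The deposited values are log2 intensities, for which the submitters' processing notes name RMA and Expression Console. Versions and genome build are not given in the sources used here. Precipitation used a Magna RIP kit and amplification a NuGEN Pico kit, per the labels' protocols. Of 41345 probe sets, 23521 had 1 gene symbol, 1814 several and 16010 no annotation entry. A total of 23328 matched the reference gene table (GRCm38.p6). The probe set with the highest mean was kept per gene, which left 22180 genes. Precision is limited by how many arrays there are.

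Genes were fitted with limma 3.58.1 in R 4.3.3 (lmFit, eBayes), all 10 arrays and group only, with Benjamini-Hochberg adjustment over all genes. The fit was tested on simulated data. Alternatives were other array scaling, the lower-scale pair as a term or left out, a filter on dim genes, all probe sets, a replicate block, only the groups compared, and each array left out. Equal replicate numbers were checked as pairs: deviations from group means of 4ET-IP and input correlated at 0.623, 0.240 and 0.277, all over 0.1, although differently numbered arrays reached 0.269. For IgG-IP with input they were -0.02, 0.08 and 0.318, and for 4ET-IP with IgG-IP -0.07 and 0.02.

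The 6 genes, the lists and the pair of arrays set apart were chosen with earlier results of these data known. Genes named were the 6, all other Sox genes, the 2 highest and 2 lowest of each list in 4ET-IP over IgG-IP with any gene of these lists called there where 5 or fewer were, and the 3 genes most like each Sox gene. Other genes named beside small counts were chosen after their values were seen. Figures used matplotlib 3.10.9.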

Additional observations from a re-analysis of the deposited data

Results flagged for a closer look

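In 3 of 22 sets of values tested (the 20 Sox genes, the other Sox4 probe set and the precursor minus neuronal mean), 1 input array stood apart from the other 3 by Dixon's test for an outlying value. Chance gives such a result in about 1 in 20 groups when all arrays lie on the same scale, which input 1 did not. For Sox4, input 1 was the lowest and its gap to the next array took up 0.871 of the range of the 4 input arrays. For Sox18, input 1 was again the lowest, with a share of 0.951. For Sox5, input 4 was the highest, with a share of 0.848. Input 1 belongs to the pair on the lower scale, and the values tested had no array medians subtracted. With each array's median subtracted, Sox4 in input 1 was at 10.495, the highest of the input arrays, with the others at 10.298 to 10.422. The part of the scale in these results was not tested further.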

How the results depend on the processing

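Counts of genes called moved most. For 4ET-IP over IgG-IP 299 genes were called in the 10 arrays, against 3054 with array medians subtracted, 2420 after quantile normalization, 2326 with the lower-scale pair as a term, 1911 in the 8 other arrays, 779 with dim genes filtered, 2454 with the replicate block and 195 in a fit of only those groups. Leaving out each array gave 90 to 672. For 4ET-IP over input the count was 1361, against 2474, 3392, 4274, 3567, 2382, 4510 and 753 under the same alternatives, and 371 to 2005. For IgG-IP over input it was 1206, against 2792, 3546, 3688, 3471, 2125 and 4120 under the first 6 of them, and 444 to 1866.

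For the 6 Sox genes, calls were gained under these alternatives and were lost only on leaving out an array. In 4ET-IP over IgG-IP, Sox1 was called at 1.26 with medians subtracted, 0.97 after quantile normalization, 0.92 with the pair term and in the 8 arrays, 0.82 with dim genes filtered and 0.88 with the block, and Sox2 at 1.40, 1.14, 1.06, 1.01, 0.96 and 0.99. Sox9 was called at 1.12, 0.81, 0.80 (pair term) and 0.68 (block). The block values here and in IgG-IP over input rest on replicate numbers that were not accepted as pairs. In 4ET-IP over input, Sox9 was called at 0.89, 0.89, 0.79, 0.76 (dim genes filtered) and 0.69 (block), and Sox4 at 0.75, 0.87, 0.67, 0.60 (8 arrays), 0.68 (block) and 0.72 (its other probe set). In IgG-IP over input, Sox4 was called at 0.77 (quantile), 0.61 (pair term), 0.58 (8 arrays), 0.77 (dim genes filtered) and 0.61 (block), and Sox11 at 0.59 (medians subtracted), 0.87, 0.73, 0.66, 0.90 and 0.71. The cause was not tested, except that the filter on dim genes leaves fewer genes to adjust over. With medians subtracted, median differences over all genes were 0.25 in 4ET-IP over IgG-IP, 0.11 in 4ET-IP over input and -0.11 in IgG-IP over input. After quantile normalization they were 0.14, 0.09 and -0.04.

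Signs of the 6 genes turned only in differences that were called under none of these alternatives. Sox4 in 4ET-IP over IgG-IP was at 0.30, 0.096, 0.059, 0.016 (8 arrays, and without 4ET-IP 1), 0.074 (block) and 0.11 (other probe set). Sox3 in 4ET-IP over input was at -0.0037 (pair term), -0.038 (8 arrays) and -0.013 (block). In IgG-IP over input Sox2 was at -0.087 (medians subtracted), and Sox9 at -0.23, -0.011 (pair term) and -0.038 (8 arrays). Of 198 values set against an alternative other than leaving out an array, 127 kept direction and side of the threshold or moved within the spread, 38 became called, 20 counts moved by more than 1.5 times and 13 turned sign.

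Leaving out each array gave, for 4ET-IP over IgG-IP, 0.71 to 0.92 for Sox1, 0.88 to 1.04 for Sox2, 0.24 to 0.46 for Sox3, 0.45 to 0.83 for Sox9, -0.24 to 0.016 for Sox4 and -0.74 to -0.51 for Sox11. For 4ET-IP over input it gave 1.03 to 1.25, 1.06 to 1.29, -0.088 to 0.10, 0.64 to 0.84, 0.44 to 0.78 and -0.00035 to 0.37. For IgG-IP over input it gave 0.24 to 0.39, 0.11 to 0.34, -0.46 to -0.24, -0.072 to 0.31, 0.58 to 0.84 and 0.66 to 1.03. The precursor minus neuronal mean ran over 0.92 to 1.20, 0.23 to 0.48 and -0.87 to -0.58, and without Sox3 it was 1.22, 0.59 and -0.62. Replicate numbers were not accepted as pairs for the comparisons with IgG-IP. Arrays carry no read depth, and signal over background was not analysed here.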
